A study of Homo sapiens with 9 samples.

Results

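The secretory pathway between the endoplasmic reticulum (ER) and the Golgi apparatus was described here by 57 genes in 11 roles, from the channel that takes new proteins into the ER to the proteins that tether and fuse vesicles at the Golgi. The genes were chosen by name for their place on this route, with earlier results of these data known. Each was followed on the brightest of its probe sets, the one with the highest mean log2 intensity over the 9 arrays. Of the 57 genes, 54 had a probe set assigned to them alone, and all 54 passed the filter on low signal, out of 13407 genes that did so on any probe set. SEC61G, KDELR2 and USO1 were not analysed here. The arrays came from HCT116, a human colon cancer cell line. Its stable clones carried the pSwitch regulator plasmid together with a mifepristone (MFP)-inducible pGene/V5 plasmid that was empty (control) or encoded TIG1A or TIG1B, the isoforms of tazarotene-induced gene 1. All 3 groups received 5 nM MFP for 24 h, with 3 arrays per group, and the study asked how gene expression changed when either isoform was induced. Each group was 1 clone, so the induced isoform and other differences between clones cannot be told apart.

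Proteins destined for secretion or for membranes are recognised by the signal recognition particle while they are being made, pass through the SEC61 translocon into the ER and lose their signal peptide to signal peptidase. COPII-coated vesicles carry them towards the Golgi, with cargo receptors such as the TMED and LMAN proteins selecting what is loaded. COPI-coated vesicles travel in the opposite direction and bring back escaped ER proteins bound to KDEL receptors. In ER stress the factors XBP1 and ATF6 switch on many genes of this pathway through short promoter elements.

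The induced gene was checked first. RARRES1, the gene of TIG1, had an intensity of 2.9 to 5.17 on the control arrays, 58452 to 66754 on the TIG1A arrays and 36413 to 44513 on the TIG1B arrays, a rise of at least 876-fold in TIG1A and at least 547-fold in TIG1B cells (limma adjusted p = 2.49e-07 and 3.68e-07). Folds for this gene are lower bounds against the array medians, because the control signal was below them. Of 10 markers of colon epithelium, 5 were at or above the array median on every array and 1 was below it on all 9, and their summed intensity was 118909 to 131275 in control, 108022 to 121497 in TIG1A and 105600 to 137446 in TIG1B cells. Keratin 19 (KRT19) fell in both lines, with log2 fold changes of -0.66 in each (adjusted p = 0.0267 and 0.0435), and E-cadherin (CDH1) rose by 0.59 on the log2 scale in TIG1A cells (adjusted p = 0.0481). Of 8 markers of blood, vessel and stromal cells, 4 were below the array median on every array and 2 were at or above it on all, and the summed intensities were 698 to 1195, 557 to 694 and 811 to 1026. The part of these markers in the results that follow was not tested.

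Promoter sequences of RefSeq (GRCh38.p14) were read for the 250 bases before each annotated start, and 50 of the 54 genes had such a window. SPCS1, SEC24D, TMED9 and ARF4 had none. The letters TGACGTGG, the core of the unfolded protein response element bound by XBP1 and ATF6, stood on either strand in the windows of 9 of the 50 genes (18.0%), against 213 of 27305 genes with a window (0.78%) and 215 of 35116 windows (0.612%). The 9 were the COPI genes ARF1, COPB1 and COPB2, the translocon genes SEC62, SSR3 and SSR4, the COPII gene SEC24A, the SNARE gene STX5 and the KDEL receptor gene KDELR3. On the longer list of this route given below, 4 of 72 genes with a window held TGACGTGG (5.56%). The ER stress response element, CCAAT and CCACG with 9 bases between them, was found in none of the 50 and in 0.0916% of all genes, and the shorter element II, ATTGG and CCACG with 1 base between them, in none and in 0.0659%. Taken alone, CCAAT was present in 48.0% of the members and 37.0% of all genes, and CCACG, which overlaps the opposite strand of TGACGTGG, in 72.0% and 37.5%. These matches are letters in a window and not measured binding sites. The windows of 5 genes are shown: KDELR3, SSR4 and COPB2, which rose in TIG1A cells and hold TGACGTGG, and KDELR1 and SCAMP4, which fell in both lines and do not hold it. Capitals mark TGACGTGG, which in all 3 of these windows lies on the opposite strand and is read as CCACGTCA. It began 46 bases before the start in KDELR3, 129 in SSR4 and 163 in COPB2. SEC61B, GOLGB1, SEC22B, YIPF5 and SCAMP1 rose in TIG1A cells without TGACGTGG in their windows, and are not shown. The motif was chosen with the values known. Positions are chr22:38467846-38468095 (plus strand) for KDELR3, chrX:153794418-153794667 (plus strand) for SSR4, chr3:139389681-139389930 (minus strand) for COPB2, chr19:48391552-48391801 (minus strand) for KDELR1 and chr19:1905149-1905398 (plus strand) for SCAMP4, and each sequence runs 5′ to 3′ on the strand of its gene.
KDELR3: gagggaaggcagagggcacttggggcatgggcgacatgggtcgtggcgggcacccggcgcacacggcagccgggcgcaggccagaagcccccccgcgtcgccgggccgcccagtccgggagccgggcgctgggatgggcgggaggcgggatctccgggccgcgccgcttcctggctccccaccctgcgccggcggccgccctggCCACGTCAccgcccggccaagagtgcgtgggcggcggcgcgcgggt
SSR4: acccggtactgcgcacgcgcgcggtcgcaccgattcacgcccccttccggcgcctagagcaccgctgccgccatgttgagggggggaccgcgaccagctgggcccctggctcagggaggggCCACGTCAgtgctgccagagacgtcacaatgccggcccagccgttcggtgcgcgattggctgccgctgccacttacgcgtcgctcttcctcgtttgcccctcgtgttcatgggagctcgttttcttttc
COPB2: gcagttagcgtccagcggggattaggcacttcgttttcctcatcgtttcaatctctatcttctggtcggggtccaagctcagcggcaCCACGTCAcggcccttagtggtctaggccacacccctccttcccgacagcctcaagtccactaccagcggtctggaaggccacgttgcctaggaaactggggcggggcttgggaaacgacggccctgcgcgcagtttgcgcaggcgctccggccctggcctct
KDELR1: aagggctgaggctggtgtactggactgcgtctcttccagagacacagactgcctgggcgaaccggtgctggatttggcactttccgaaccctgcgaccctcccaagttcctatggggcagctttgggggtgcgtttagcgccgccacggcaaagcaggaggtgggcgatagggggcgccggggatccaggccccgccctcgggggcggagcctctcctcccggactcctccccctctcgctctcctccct
SCAMP4: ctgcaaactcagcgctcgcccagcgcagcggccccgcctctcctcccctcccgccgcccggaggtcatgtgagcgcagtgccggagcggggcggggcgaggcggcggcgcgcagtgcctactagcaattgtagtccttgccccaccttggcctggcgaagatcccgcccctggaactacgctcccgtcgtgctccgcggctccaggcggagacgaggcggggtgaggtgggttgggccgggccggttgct

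Most genes of the pathway had a higher mean in both lines than in control cells, 44 of 54 in TIG1A (81.5%, all genes 47.8%) and 42 of 54 in TIG1B cells (77.8%, all genes 48.9%). Because the list was made with earlier results of these data known, its shares here and below are a description with no test. Both counts include ARF1, which passed the filter on low signal through its TIG1A arrays alone. Values are signal intensities on the scale of the deposited table, where the array medians were 59.9 to 73.9, and fold changes are differences of mean log2 intensity. The lines were compared with the same 3 control arrays, so the comparisons are not independent of each other, and their p-values measure the spread between these arrays. The median log2 fold change of the 54 genes was 0.296 in TIG1A and 0.164 in TIG1B cells against control, where the brightest probe sets of all 13353 genes tested gave medians of -0.0298 and -0.0108. TIG1A cells had the highest group mean for 34 of the 54 genes (63.0%), against 33.9% of all genes, and control cells had the lowest for 39 (72.2%), against 36.1%. Array by array, the median of the 54 genes relative to the control mean was 0.322, 0.282 and 0.238 on the TIG1A arrays and 0.136, 0.226 and 0.162 on the TIG1B arrays. It was -0.009, -0.039 and 0.062 on the control arrays, so that no array of either line overlapped the controls. In bulk RNA, fewer expressing cells and less RNA per cell cannot be told apart.

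**Figure D1:**
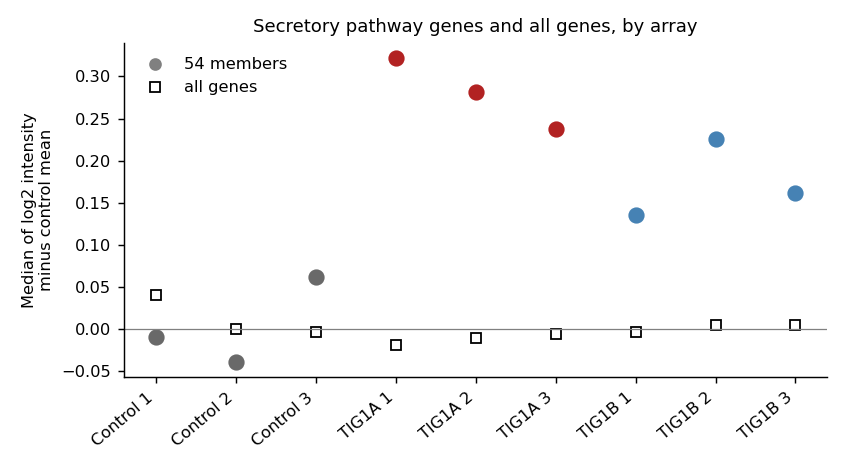
Median over genes of log2 intensity minus the mean log2 intensity of the 3 control arrays, for each of the 9 arrays (x axis). Filled circles are the 54 pathway genes and open squares all 13353 genes. The TIG1A arrays sit between 0.238 and 0.322, the TIG1B arrays between 0.136 and 0.226, and the squares of all arrays between -0.019 and 0.04.

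Against control, 9 of the 54 genes rose in TIG1A cells at an adjusted p under 0.05 (16.7%, limma), where 3.39% of all genes did, and 3 fell (5.56%), where 3.62% of all genes did. Over all 29977 probe sets kept, 6.06% passed in this comparison. In TIG1B cells 2 genes rose (3.7%, all genes 0.637%) and 3 fell (5.56%, all genes 1.21%), and 1.78% of all probe sets passed. All 3 TIG1A arrays lay above all 3 control arrays for 29 genes (53.7%, all genes 16.3%) and below them for 3 (5.56%, all genes 17.9%). For TIG1B these counts were 17 (31.5%, all genes 12.2%) and 4 (7.41%, all genes 14.6%). The genes are mostly bright ones. Of the 54, 40 belonged to the brightest 25% of all genes, in which 5.9% of genes rose in TIG1A cells and the median log2 fold change was 0.0593, while these 40 had a median of 0.279 and 7 rises. A scaling that set every array's median log2 intensity to the same value moved the median of all probe sets from -0.0437 to 0.121 in TIG1A and from -0.03 to 0.116 in TIG1B cells. The median of the pathway genes exceeded that of all genes by 0.326 in TIG1A and 0.175 in TIG1B cells, a difference that such centring cannot change, and by 0.235 and 0.113 after quantile normalization. Of the 33 genes with more than 1 kept probe set, 11 had probe sets on both sides of 0 in TIG1A cells, and 11 in TIG1B cells.

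The counts depended on single arrays. Without control array 2, TIG1A array 2 or TIG1A array 3 no gene of the pathway passed in TIG1A against control, and without control 3, TIG1A 1, TIG1B 2 and TIG1B 3 the count of 12 became 7, 5, 6 and 5. For TIG1B against control the count of 5 became 0 without control 2, TIG1A 2 or any of the 3 TIG1B arrays, 1 without control 3 or TIG1A 3, and 3 without TIG1A 1. The median log2 fold changes stayed between 0.286 and 0.323 for TIG1A and between 0.133 and 0.193 for TIG1B when any 1 array was left out.

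**Figure D2:**
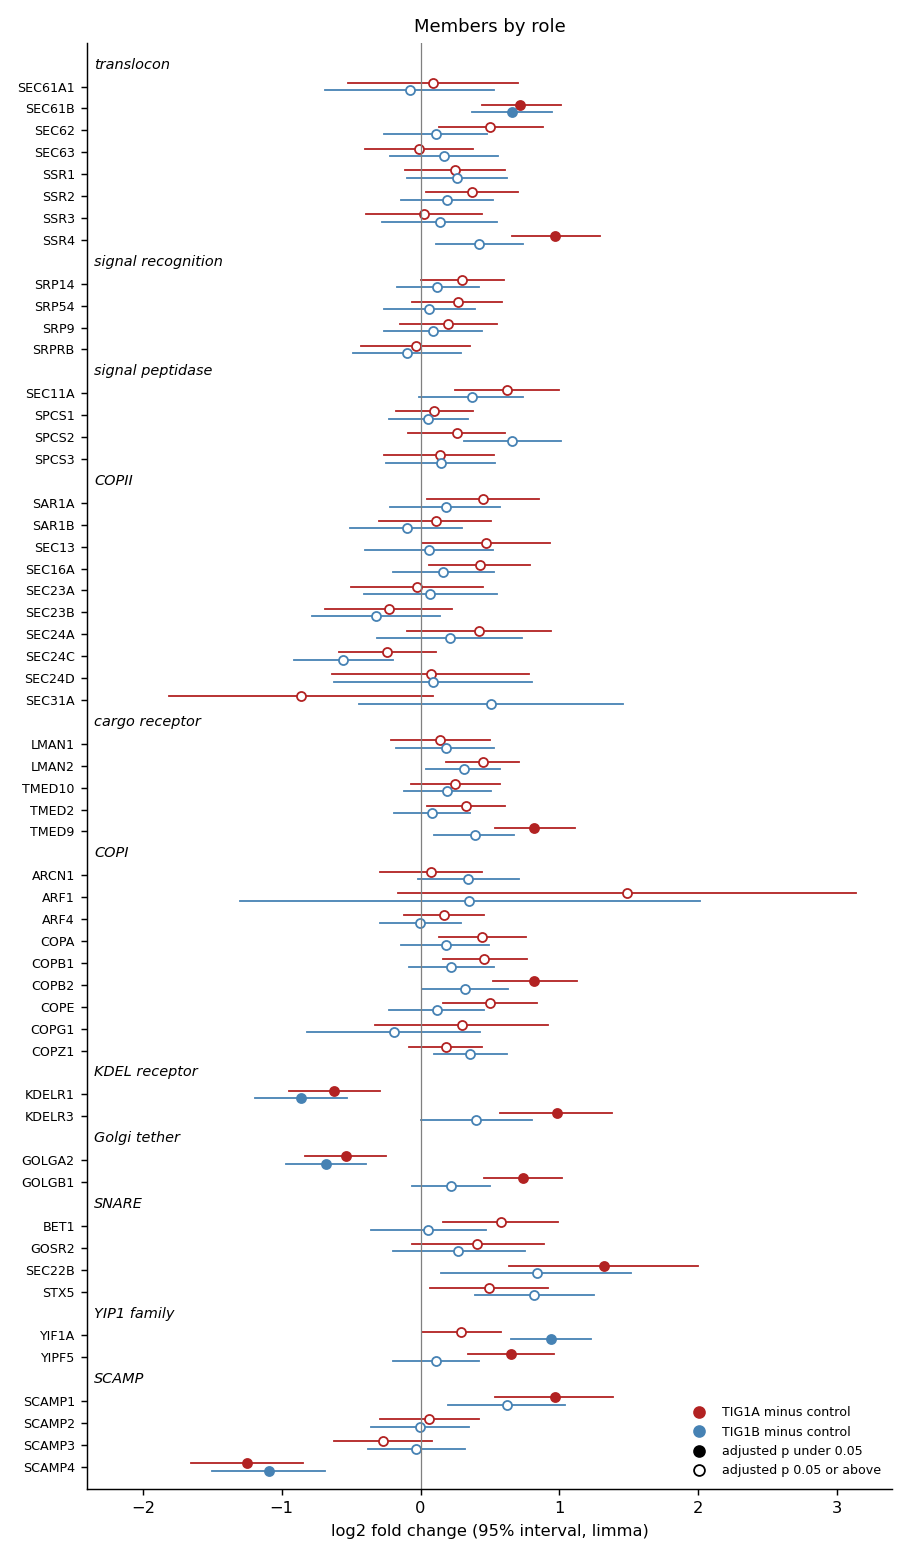
Log2 fold change against control (x axis) of the 54 pathway genes, grouped by role, for TIG1A (red) and TIG1B (blue), with 95% intervals from limma as bars. Filled points passed an adjusted p of 0.05. Most points lie to the right of 0, and KDELR1, GOLGA2 and SCAMP4 are filled and to the left of it in both lines.

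Entry into the ER was led by SEC61B and SSR4. SEC61B, a small subunit of the translocon channel, had intensities of 8906, 10067 and 10096 on the control arrays, 16882, 15186 and 15936 on the TIG1A arrays and 16113, 14539 and 15163 on the TIG1B arrays. Both lines lay above all controls and overlapped each other. It rose 1.65-fold in TIG1A (log2 fold change 0.72, SE 0.12, adjusted p = 0.022) and 1.58-fold in TIG1B cells (0.66, SE 0.12, adjusted p = 0.0468, and 0.0509 after quantile normalization). SSR4, a subunit of the translocon-associated protein complex, read 8555, 7551 and 8992 in control, 17808, 15823 and 15647 in TIG1A and 12292, 10725 and 10649 in TIG1B cells. The 3 groups did not overlap, with TIG1A highest. Its rise was 1.97-fold in TIG1A (log2 fold change 0.97, SE 0.14, adjusted p = 0.014), while TIG1B, at 0.42 on the log2 scale, did not pass (adjusted p = 0.158). SSR4 stands in a table that the study made from these arrays, so its rise is not independent evidence, and the same holds for KDELR3, SCAMP1, SCAMP4 and YIF1A. The other translocon genes with a value, SEC61A1, SEC62, SEC63 and SSR1 to SSR3, did not pass in either line. Their log2 fold changes ran from -0.01 (SEC63) to 0.5 (SEC62, adjusted p = 0.105) in TIG1A cells.

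None of the 4 genes of signal recognition and none of the 4 of signal peptidase passed with limma, and at an unadjusted p under 0.05 there was 1 of each in TIG1A cells (27.7% of all genes) and 0 and 1 in TIG1B cells (19.9% of all genes). SRP14, which with SRP9 forms the part of the particle that pauses translation, had TIG1A arrays above the controls and TIG1B arrays overlapping them, with 21027, 22730 and 21010 in control, 24854, 26703 and 28436 in TIG1A and 23562, 25607 and 21548 in TIG1B cells. Its log2 fold changes were 0.3 (adjusted p = 0.194) and 0.12 (adjusted p = 0.648). SEC11A, a catalytic subunit of signal peptidase, read 11416, 7889 and 9513 in control against 13651, 14484 and 15756 in TIG1A and 12388, 12716 and 11657 in TIG1B cells, without overlap with control in either line (log2 fold changes 0.62 and 0.37, adjusted p = 0.0638 and 0.28). Without control array 1 SEC11A passed in TIG1A cells (0.75, adjusted p = 0.0281), and with any other array left out its adjusted p was 0.0857 to 0.175. Its second probe set did not pass there (0.46, adjusted p = 0.0685), nor without control array 1 (0.49, adjusted p = 0.0623). SPCS2, an accessory subunit, was instead highest in TIG1B cells. It read 8605, 10686 and 8144 in control, 11676, 10395 and 10572 in TIG1A and 15738, 13770 and 13621 in TIG1B cells. The log2 fold change in TIG1B was 0.66 (SE 0.15, adjusted p = 0.0773) on this probe set and 0.69 (SE 0.14, adjusted p = 0.0529) on a second one, both short of the threshold.

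The COPII coat, which forms vesicles at the ER, had 10 genes and no call by limma on the brightest probe set in either line, with 3 genes in TIG1A and 1 in TIG1B cells at an unadjusted p under 0.05, shares near or below those of all genes (27.7% and 19.9%). Its log2 fold changes had medians of 0.0895 in TIG1A and 0.0794 in TIG1B cells, the lowest of the coats and cargo receptors. SEC16A, a scaffold of ER exit sites, read 1140, 1277 and 1329 in control, 1445, 1807 and 1798 in TIG1A and 1239, 1380 and 1582 in TIG1B cells. TIG1A alone was clear of the controls (log2 fold change 0.43, adjusted p = 0.146). SEC24C, a cargo-binding coat subunit, went the other way, with 2378, 2027 and 1985 in control, 2099, 1614 and 1713 in TIG1A and 1384, 1411 and 1541 in TIG1B cells, and a log2 fold change of -0.56 in TIG1B (adjusted p = 0.113). For SEC23B, an inner coat subunit that stimulates GTP hydrolysis by the GTPase SAR1, probe sets disagreed. The brightest gave -0.23 on the log2 scale for TIG1A (adjusted p = 0.508) and the dimmest, with 377, 495 and 557 in control and 771, 791 and 798 in TIG1A cells, rose by 0.74 (SE 0.16, adjusted p = 0.0407).

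SEC31A, of the outer COPII coat, separated the arrays in an unusual way. It read 3045 and 3055 on control arrays 1 and 2 but 1080 on control array 3, then 868, 1259 and 1528 in TIG1A and 2949, 3128 and 3135 in TIG1B cells. Control array 3 thus lay within the TIG1A range and the other controls at the TIG1B level. A second probe set placed control array 3 within the TIG1A range too, with 1186, 1103 and 454 in control, 414, 493 and 564 in TIG1A and 1529, 1079 and 1191 in TIG1B cells. The log2 fold changes of -0.86 in TIG1A (SE 0.41, adjusted p = 0.237) and 0.51 in TIG1B cells (adjusted p = 0.546) did not pass. Without control array 3 the TIG1A value was -1.36 and passed (SE 0.24, adjusted p = 0.0389), as did the second probe set (-1.23, adjusted p = 0.0369), and the TIG1B value was 0.01 (adjusted p = 0.99). With any other array left out the TIG1A value was -1.05 to -0.61 and did not pass (adjusted p = 0.27 to 0.489). Nor did the second probe set (adjusted p = 0.24 to 0.461). SEC31A was singled out after its values were seen.

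All 5 cargo receptors had a log2 fold change above 0 in both lines (all genes 47.8% in TIG1A and 48.9% in TIG1B cells). Of 14 genes of this role on the longer list given below, 11 were above 0 in TIG1A and 8 in TIG1B cells. TMED9, a p24 family protein that cycles between ER and Golgi, read 6199, 6151 and 6565 in control, 10574, 11665 and 11270 in TIG1A and 7759, 9014 and 7989 in TIG1B cells. The groups were fully separated, TIG1B lying between the others. It rose 1.77-fold in TIG1A (log2 fold change 0.82, SE 0.12, adjusted p = 0.0151), while 0.39 in TIG1B cells did not pass (adjusted p = 0.155). For LMAN2, LMAN1, TMED2 and TMED10 the values ran from 0.14 to 0.45 in TIG1A and from 0.085 to 0.31 in TIG1B cells on the log2 scale, and none passed.

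COPI, the coat of vesicles that return to the ER, had 9 genes. All had log2 fold changes above 0 in TIG1A cells (all genes 47.8%), and 7 did in TIG1B cells (all genes 48.9%). Their medians were 0.445 and 0.224. On the longer list given below, 3 of 8 genes of this role were above 0 in TIG1A and 2 in TIG1B cells. The medians there were -0.344 and -0.347. ARF1 is among the 9 but adds no support, since it passed the filter on low signal through its TIG1A arrays alone. COPB2, a subunit of the cargo-binding cage of COPI, was the one of the 9 that passed the threshold. Its intensities were 5853, 5093 and 6258 in control, 9623, 10030 and 10705 in TIG1A and 6852, 7534 and 7023 in TIG1B cells. The rise was 1.77-fold in TIG1A (log2 fold change 0.82, SE 0.13, adjusted p = 0.0187) and 1.25-fold, short of the threshold, in TIG1B cells (adjusted p = 0.252). COPA, COPB1 and COPE were clear of the controls on all 3 TIG1A arrays, with log2 fold changes of 0.44, 0.46 and 0.5 (adjusted p = 0.094, 0.0792 and 0.0863). COPZ1, a small subunit, was highest in TIG1B cells on its brightest probe set only. There TIG1B read 7438, 7141 and 7054, against 6265, 6482 and 6327 for TIG1A and 5647, 5855 and 5369 for control. The log2 fold change in TIG1B was 0.36 (adjusted p = 0.151). The other probe set had TIG1B arrays of 5219, 5747 and 5250, within its control range of 3966 to 6704. Its log2 fold change in TIG1B was 0.006 (adjusted p = 0.99). ARF1, the GTPase that recruits the coat, could be read only on a dim probe set, with 0, 2 and 1 of 3 arrays at or above the array median in control, TIG1A and TIG1B cells, and its values of 16.4, 50.1 and 15.6 in control, 43.4, 63.7 and 103 in TIG1A and 17.2, 83 and 18.7 in TIG1B cells overlapped.

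The KDEL receptors went in opposite directions in TIG1A cells. KDELR1 (chromosome 19, from 48382575 to 48397412, GRCh38) read 8520, 9279 and 9524 in control, 6742, 5517 and 5606 in TIG1A and 5533, 4610 and 4899 in TIG1B cells. Every array of both lines was below every control. It was 1.53-fold lower in TIG1A (log2 fold change -0.62, SE 0.14, adjusted p = 0.0475) and 1.82-fold lower in TIG1B cells (-0.86, SE 0.14, adjusted p = 0.035). Its second probe set fell likewise, from 2885, 3075 and 4038 in control to 1849, 2046 and 1909 in TIG1A and 1620, 1606 and 1713 in TIG1B (log2 values -0.77 and -1.0, adjusted p = 0.0339 and 0.0316). KDELR3 (chromosome 22, from 38468096 to 38483447) read 4570, 3219 and 3049 in control, 7299, 6650 and 7031 in TIG1A and 4747, 4826 and 4471 in TIG1B cells. TIG1A stood clear of both other groups, and TIG1B overlapped control through control array 1. The rise in TIG1A was 1.97-fold (log2 fold change 0.98, SE 0.17, adjusted p = 0.0247), and 0.4 in TIG1B cells did not pass (adjusted p = 0.275). Its dimmer probe sets had log2 fold changes of 0.77 (adjusted p = 0.0796) and 0.64 (adjusted p = 0.223) in TIG1A cells. Averaged over its 3 probe sets KDELR3 had 0.79 on the log2 scale there (adjusted p = 0.0523). With median centring KDELR1 had -0.45 in TIG1A (adjusted p = 0.106) and -0.72 in TIG1B cells (adjusted p = 0.0656), so that its direction held and its calls did not.

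**Figure D3:**
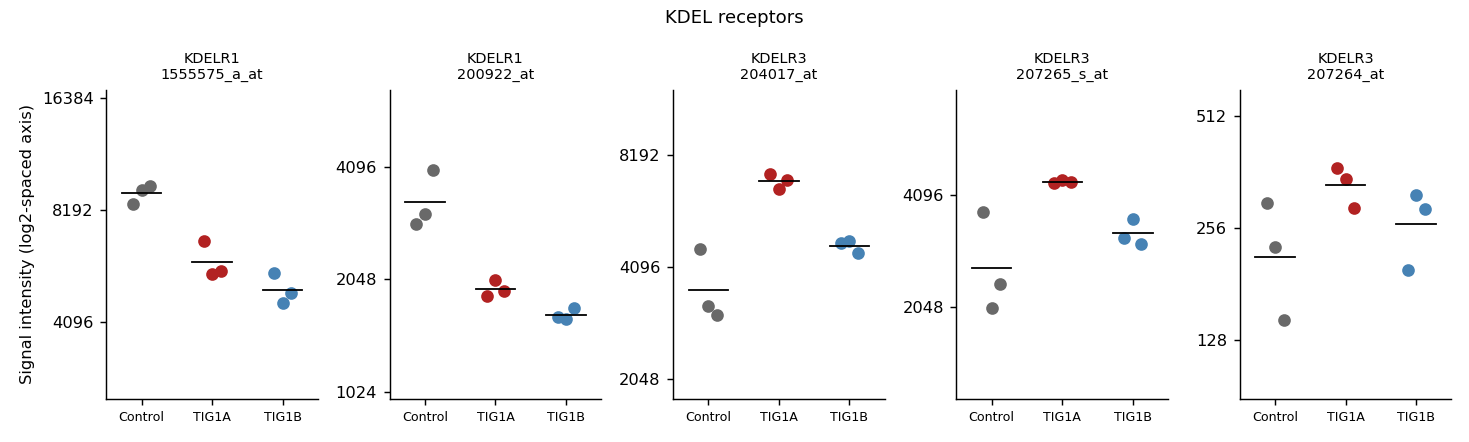
Signal intensity (y axis, spaced on a log2 scale, each panel spanning the same ratio) on each array for the 2 probe sets of KDELR1 and the 3 of KDELR3. Points are arrays and bars are geometric means of 3 arrays. Control arrays are highest in both KDELR1 panels, and TIG1A arrays are highest in the 2 brighter KDELR3 panels.

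The golgins that tether vesicles at the Golgi also parted. GOLGB1 (giantin), a long coiled-coil tether, read 812, 786 and 800 in control, 1308, 1293 and 1414 in TIG1A and 922, 1003 and 870 in TIG1B cells, with no overlap among the groups. It rose 1.67-fold in TIG1A (log2 fold change 0.74, SE 0.12, adjusted p = 0.019), and its value in TIG1B was 0.22 (adjusted p = 0.376). A dimmer probe set gave 0.36 in TIG1A cells (adjusted p = 0.411). GOLGA2 (GM130), a tether of the cis-Golgi, read 914, 931 and 904 in control, 667, 626 and 601 in TIG1A and 525, 626 and 568 in TIG1B cells. Both lines were below control, by 1.45-fold (log2 fold change -0.54, SE 0.12, adjusted p = 0.0475) and 1.6-fold (-0.68, SE 0.12, adjusted p = 0.0435). The other 3 probe sets of GOLGA2 did not pass, with log2 fold changes of 0.074, -0.011 and 0.31 in TIG1A and -0.24, -0.28 and -0.21 in TIG1B cells, and the mean over all 4 was -0.04 (adjusted p = 0.856) and -0.35 (adjusted p = 0.167). Median centring left -0.37 (adjusted p = 0.194) and -0.53 (adjusted p = 0.14).

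All 4 SNAREs, which drive membrane fusion, had every TIG1A array above every control array on the brightest probe set. So did 53.7% of the 54 genes, 16.3% of all genes and 1 of 10 SNARE genes on the longer list given below. The margin was thin for GOSR2 (1211 against 1195) and STX5 (603 against 582). SEC22B, which pairs with STX5 on ER to Golgi carriers, read 326, 230 and 376 in control, 686, 640 and 996 in TIG1A and 718, 570 and 392 in TIG1B cells. Its rise of 2.49-fold in TIG1A was among the least precise (log2 fold change 1.32, SE 0.3, adjusted p = 0.0435), and 0.84 in TIG1B cells did not pass (adjusted p = 0.19). STX5, the syntaxin of the Golgi, read 523, 460 and 582 in control, 917, 707 and 603 in TIG1A and 990, 896 and 863 in TIG1B cells. Both lines were above control (log2 fold changes 0.49 and 0.82, adjusted p = 0.149 and 0.0758). BET1 and GOSR2 had log2 fold changes of 0.58 (adjusted p = 0.0978) and 0.41 (adjusted p = 0.255) in TIG1A cells. BET1 passed without control array 1 (0.72, adjusted p = 0.0415), and with any other array left out its adjusted p was 0.123 to 0.217. The 8 other kept probe sets of GOSR2 ran from -0.6 to 1.43 in TIG1A cells, 5 of them below 0, and none passed (smallest adjusted p = 0.165).

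The related membrane proteins YIF1A and YIPF5 each rose past the threshold in 1 line. YIF1A, which cycles between ER and Golgi, read 2089, 1831 and 2079 in control, 2477, 2330 and 2538 in TIG1A and 3937, 3594 and 3976 in TIG1B cells. The groups were separated, with TIG1B highest, and the rise was 1.92-fold in TIG1B (log2 fold change 0.94, SE 0.12, adjusted p = 0.0213) against 0.29 in TIG1A cells (adjusted p = 0.192). The log2 difference of TIG1A minus TIG1B was -0.65 (SE 0.12, adjusted p = 0.0953). Relative to the median of the 10 nearest kept genes on each side, YIF1A stood 0.871 higher in TIG1A and 0.868 higher in TIG1B cells. YIPF5 read 5274, 4325 and 5210 in control, 7218, 7772 and 8144 in TIG1A and 5256, 5557 and 5138 in TIG1B cells, so that TIG1B overlapped control and TIG1A was above both. It rose 1.57-fold in TIG1A (log2 fold change 0.65, SE 0.13, adjusted p = 0.0355), also on a second probe set (0.78, adjusted p = 0.0288). Its other 2 probe sets gave 0.31 (adjusted p = 0.243) and 0.71 (adjusted p = 0.135).

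Among the secretory carrier membrane proteins, SCAMP1 rose in TIG1A cells and SCAMP4 fell in both lines. SCAMP1 read 4445, 3167 and 2786 in control, 6852, 6580 and 6474 in TIG1A and 5414, 5317 and 4940 in TIG1B cells, without overlap among the groups. It was 1.95-fold higher in TIG1A (log2 fold change 0.97, SE 0.18, adjusted p = 0.029), and TIG1B had 0.62 (adjusted p = 0.134, and 0.035 without control array 1). Of its 5 further probe sets 2 also rose in TIG1A cells (0.88 and 0.81, adjusted p = 0.0216 and 0.0423), and the others gave 0.68, 0.79 and 0.42. SCAMP4 read 801, 978 and 966 in control, 459, 350 and 350 in TIG1A and 468, 371 and 448 in TIG1B cells. Both lines were far below control and overlapped each other. The decrease was 2.38-fold in TIG1A (log2 fold change -1.25, SE 0.17, adjusted p = 0.0139) and 2.13-fold in TIG1B cells (-1.09, SE 0.17, adjusted p = 0.0326). A dimmer probe set gave -1.17 and -1.24 without passing (adjusted p = 0.115 and 0.151), and with median centring the TIG1B value was -0.95 (adjusted p = 0.0544). SCAMP2 and SCAMP3 did not pass, with log2 fold changes of 0.063 and -0.27 in TIG1A cells.

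**Figure D4:**
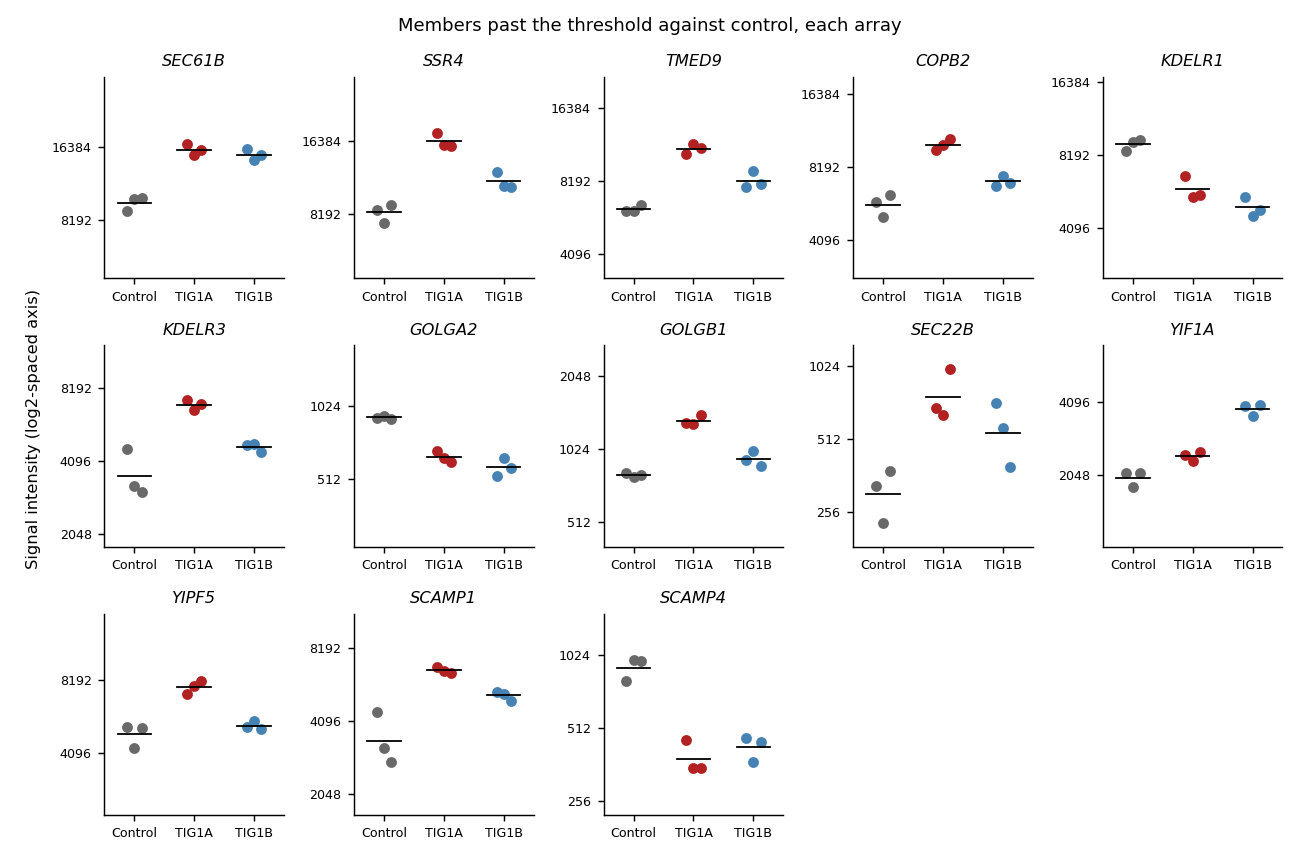
Signal intensity on each array (y axis, spaced on a log2 scale, each panel spanning the same ratio) of the 13 genes whose brightest probe set passed the threshold against control in either line. Points are arrays and bars are geometric means of 3 arrays. TIG1A arrays are highest for SSR4, TMED9, COPB2, KDELR3, GOLGB1, YIPF5 and SCAMP1, TIG1B arrays for YIF1A, and control arrays for KDELR1, GOLGA2 and SCAMP4.

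TIG1A and TIG1B cells were also compared directly. No gene of the pathway passed with limma, where 0.417% of all probe sets and 0.584% of all genes did. At an unadjusted p under 0.05 there were 12 of 54 (22.2%, all genes 15.0%). The median log2 difference of TIG1A minus TIG1B was 0.175, against 0.00271 over all genes, and 39 of the 54 genes were higher in TIG1A cells (72.2%, all genes 50.3%). All 3 TIG1A arrays were above all 3 TIG1B arrays for 19 genes (35.2%, all genes 14.2%) and below them for 5 (9.26%, all genes 14.2%). The smallest adjusted p was that of YIF1A. A rise past the threshold in 1 line alone, as for KDELR3 or TMED9, does not by itself show that the lines differ. The 95% interval of the difference, not adjusted for the number of genes, was 0.18 to 0.98 for KDELR3 and 0.15 to 0.72 for TMED9. Both intervals lay above 0, while the limma adjusted p of the difference was 0.227 and 0.202. For SEC61B the interval was -0.22 to 0.36.

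The 9 genes with TGACGTGG in their promoter window all had log2 fold changes above 0 in both lines on their brightest probe sets. SSR3 was at 0.027 in TIG1A cells there and at -0.82, -1.21 and -0.15 on its 3 other probe sets, none of which passed, and with probe sets averaged 8 of the 9 were above 0 in each line. On the brightest probe sets their median was 0.5 in TIG1A and 0.32 in TIG1B cells, against 0.26 and 0.15 in the 41 genes without it, of which 31 and 30 were above 0. Of the 9, 3 rose in TIG1A cells (KDELR3, SSR4 and COPB2) and none fell, and of the 41, 5 rose and 3 fell. The motif was chosen with the values known. The dim ARF1, which passed the filter through its TIG1A arrays alone, is among the 9. These figures are therefore a description with no test.

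**Figure D5:**
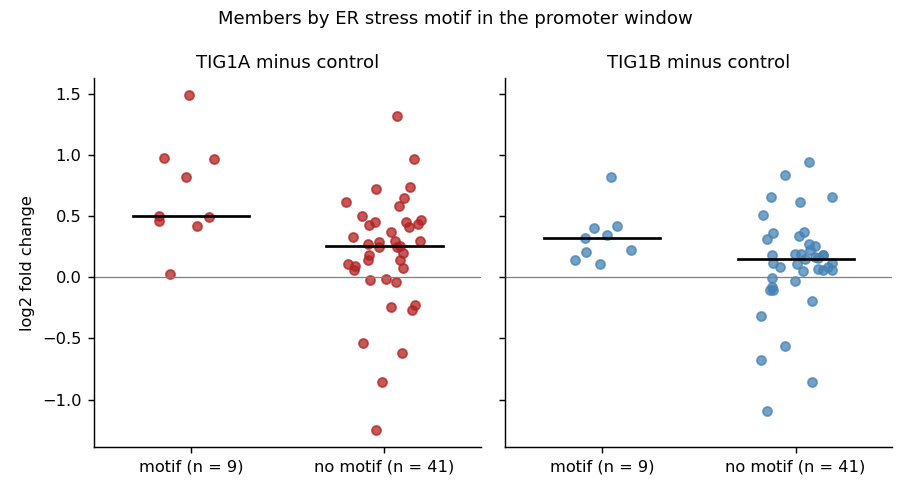
Log2 fold change against control (y axis) in TIG1A (left) and TIG1B cells (right) of the 50 pathway genes with a promoter window, split by whether TGACGTGG is in the 250 bases before the start. Points are genes, with sideways scatter for visibility, and bars are medians, at 0.5 and 0.26 on the left and 0.32 and 0.15 on the right.

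Position along the genome was examined through the 10 nearest kept genes on each side. For the 9 genes that rose in TIG1A cells the median log2 fold change of these neighbours lay between -0.325 (SEC22B) and 0.199 (SEC61B), and each gene stood above its neighbours by 0.526 (SEC61B) to 1.64 (SEC22B). SRP14, STX5, YIF1A and ARF1 also had neighbour medians of -0.3 or lower in TIG1A cells (-0.401, -0.361, -0.577 and -0.315) while their own values were above 0. With 25 genes on each side these medians were -0.0717, -0.168, -0.392 and 0.0469. YIF1A on chromosome 11, from 66284580 to 66289143, had 1 of 20 neighbours above 0 in TIG1A cells and 12 of 20 in TIG1B cells. Its neighbour medians were -0.577 and 0.0724. SPCS2, STX5 and ARCN1, also on chromosome 11, had neighbour medians of -0.207, -0.361 and -0.281 in TIG1A cells. In TIG1B cells these were 0.155, 0.199 and 0.296. COPB1 on this chromosome went the other way, with 0.0397 and -0.0963. SPCS2 stood above its neighbours by 0.466 and 0.505, and STX5 by 0.855 and 0.619. The part of position in these values was not tested. GOLGA2 on chromosome 9, from 128255829 to 128276007, lay among neighbours with medians of -0.303 in TIG1A and -0.394 in TIG1B cells, from which it differed by -0.235 and -0.287, and of -0.112 and -0.162 with 25 on each side. SCAMP4 on chromosome 19, from 1905399 to 1926013, had a neighbour median of -0.325 in TIG1B cells (-0.0981 with 25 on each side) and was 0.769 below it. KDELR1 on the same chromosome was lower than its neighbours by 0.616 in TIG1A and 0.669 in TIG1B cells.

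A longer list of the same route, with other coat regulators, tethers and SNAREs, held 88 further genes with a value. In TIG1A cells 1 of the 88 rose (1.14%, all genes 3.39%) and 3 fell (3.41%, all genes 3.62%) with limma. In TIG1B cells none rose (all genes 0.637%) and 3 fell (3.41%, all genes 1.21%). Log2 fold changes were above 0 for 57 in TIG1A (64.8%, all genes 47.8%) and 46 in TIG1B cells (52.3%, all genes 48.9%). At an unadjusted p under 0.05 there were 29 in TIG1A (33.0%, all genes 27.7%) and 16 in TIG1B cells (18.2%, all genes 19.9%). Its median log2 fold changes were 0.138 and 0.00971. GBF1, the exchange factor that activates ARF1 for COPI, read 1423, 1334 and 1477 in control, 756, 697 and 608 in TIG1A and 591, 649 and 665 in TIG1B cells. It was 2.06-fold and 2.22-fold lower (log2 fold changes -1.04 and -1.15, SE 0.14 for both, adjusted p = 0.0116 and 0.017). BET1L, a Golgi SNARE, read 1412, 1538 and 1100 in control, 597, 579 and 649 in TIG1A and 537, 644 and 697 in TIG1B (log2 values -1.14 and -1.1, adjusted p = 0.016 and 0.0322). Both genes were thus lower in each line without overlap with control. PREB, the exchange factor that activates SAR1 for COPII, fell by 0.62 on the log2 scale in TIG1A cells (adjusted p = 0.0338) and had -0.62 in TIG1B cells (adjusted p = 0.0574). GOLGA3, a golgin, was 2.19-fold lower in TIG1B cells (log2 fold change -1.13, adjusted p = 0.0179) and COG3, of the conserved oligomeric Golgi complex, rose by 0.71 on the log2 scale in TIG1A cells (adjusted p = 0.0417). Over all probe sets of GOLGA3 the mean was -0.5 in TIG1B cells (adjusted p = 0.478), and BET1L so averaged had -0.73 there (adjusted p = 0.107). The 4 calls in TIG1A cells became 15 without control 1, 1 without control 2, TIG1A 2 or TIG1A 3, and 2 without control 3, TIG1A 1, TIG1B 2 or TIG1B 3. The 3 calls in TIG1B cells became 5 without control 1, 0 without control 2, TIG1B 1 or TIG1B 2, and 1 without TIG1B 3.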

How the data were processed

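RNA of 9 HCT116 cultures, 3 per group, was hybridised to Affymetrix HG-U133 Plus 2.0 arrays. Per the labels, the authors computed the deposited signal intensities in GCOS with global scaling to a target of 500, and they are on a linear scale. Here 62 control probe sets were set aside, values were floored at 1 and turned into log2, and 29977 of 54613 probe sets at or above their array's median on 2 of the 3 arrays of a group were kept. Each group got 1 mean in limma 3.58.1 (R 4.3.3), leaving 6 residual degrees of freedom over the 9 arrays, with Benjamini-Hochberg adjustment over all kept probe sets and a threshold of 0.05. The code was checked on simulated data. Probe sets with 1 gene symbol (41091) were assigned to genes, and those with several (1801) or none (11721) were not. A gene's brightest probe set stood for it. The members and lists were chosen with earlier results of these data known. Genes named were those past the threshold on any probe set, those in the study's tables, the KDEL receptors, the smallest p per role and line, and those whose neighbours' median reached 0.3 in size. Alternatives covered scaling, offset, filter, arrays fitted, replicate number, variance model, the methods' t-test, probe-set averaging and arrays left out. Leaving out both TIG1 arrays numbered 1, and probe-set averages for the promoter motif, were added after seeing the data. The number of arrays limits the precision.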

Additional observations from a re-analysis of the deposited data

Results flagged for a closer look

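SEC31A was singled out because every TIG1A array lay below the control mean and every TIG1B array above it. The log2 fold changes against control differed by -1.37 between TIG1A and TIG1B cells (SE 0.41, limma adjusted p = 0.226), so the difference did not pass the threshold. Control array 3, at 1080, lay apart from control arrays 1 and 2 at 3045 and 3055. On the second probe set the difference was -1.36 (SE 0.36, adjusted p = 0.184). Without control array 3 the difference was -1.37 (SE 0.21, adjusted p = 0.0626) on the brightest probe set and -1.36 (SE 0.19, adjusted p = 0.048) on the second, and TIG1A against control had -1.36 (adjusted p = 0.0389). With any other array left out the adjusted p of the difference was 0.19 to 0.421 on the brightest and 0.146 to 0.376 on the second. For TIG1A against control it was 0.27 to 0.489 on the brightest.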

How the results depend on the processing

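For the pathway genes, the 12 calls in TIG1A against control and the 5 in TIG1B against control became 0 and 0 without a filter on dim probe sets, and 0 and 0 when only the 6 arrays of a comparison were fitted. They became 19 and 9 with the filter at the 75th percentile, and 20 and 11 with the trend and robust options. With the methods' t-test they were 2 and 0 after adjustment and 26 and 17 before it, and without both TIG1 arrays numbered 1 they were 1 and 0. TIG1A against TIG1B, with 0 calls, had 5 with the stricter filter, 5 with trend and robust options and 19 by the unadjusted t-test of the methods. Median centring left 2 calls in TIG1B cells and moved the split of all probe sets called higher and lower from 858 and 960 to 1274 and 357 in TIG1A, and from 210 and 325 to 251 and 105 in TIG1B cells. The median log2 fold change was 0.461 and 0.31 with median centring and 0.23 in TIG1A cells after quantile normalization. Leaving out 1 array gave 0 to 12 calls in TIG1A and 0 to 5 in TIG1B cells.

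For the further genes, the 4 and 3 calls became 0 and 0 without the filter, 17 and 6 with the stricter one, 0 and 0 with 6 arrays, 14 and 6 with trend and robust options, 1 and 0 by the methods' t-test, 24 and 13 by it unadjusted, and 1 and 0 without both TIG1 arrays numbered 1. Averaging probe sets gave 10 in TIG1A cells, and leaving out 1 array gave 1 to 15 and 0 to 5. TIG1A against TIG1B had 3 with the stricter filter, 2 with trend and robust options and 21 by the unadjusted t-test of the methods.

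Correlations of deviations from the group means ran from -0.0369 to 0.192 between same-numbered arrays of 2 groups and from -0.126 to 0.0895 between differently numbered ones. The highest, 0.192, was that of TIG1A array 1 with TIG1B array 1, so a shared deviation of these 2 arrays is not excluded. With the replicate number as a block, 3 and 0 pathway genes and 1 and 0 further genes passed. Of the 24 called values of single genes, none changed direction under the 20 alternatives, and 24 kept their call with the stricter filter, the offset of 50 and the trend and robust options. None kept it without a filter or with the 6 arrays of a comparison alone. By the methods' t-test 2 kept it, and 1, 3 and 4 did without control 2, TIG1A 2 and TIG1A 3. The median of ARF1's neighbours in TIG1A cells, -0.315, was 0.0469 with 25 neighbours on each side, and those of SRP14, STX5, GOLGA2 and SCAMP4 moved towards 0 by over 1.5 times. The causes of these changes were not tested.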
